A study of Mus musculus with 10 samples.

Results

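Messenger RNA levels of 35 mouse genes that carry glucose into the cell, run glycolysis, handle lactate and pyruvate, and store or mobilise glycogen were followed in the left atrium. The genes were picked by symbol for these functions, with earlier results of these libraries known, and all 35 were found among the 37583 gene identifiers of the count data. All 35 had enough reads to be among the 15364 genes tested. The data were 10 poly(A)-selected RNA-seq libraries from left atria of adult mice. Libraries labelled KO (KO26 and KO337) are described as a cardiac knockout of Csk, the C-terminal Src kinase, which keeps kinases of the Src family inactive, and they stand against untreated wild-type libraries (WT35 and WT338). Libraries labelled IBR (IBR1 to IBR3) came from animals treated with ibrutinib, an inhibitor of Bruton's tyrosine kinase, and stand against vehicle-treated libraries (CTL1 to CTL3). The labels give neither the promoter or recombinase behind the cardiac knockout, nor the strain, sex, ibrutinib dose or time of treatment, nor whether each library is a separate animal. P-values therefore measure the spread between these libraries, which may be technical.

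Heart muscle draws most of its energy from fatty acids and lactate and turns to glucose under load, hypoxia or insulin. Glucose enters mainly through the insulin-responsive transporter GLUT4 (Slc2a4) and, to a lesser degree, GLUT1 (Slc2a1), is trapped by hexokinase, committed to glycolysis by phosphofructokinase, and leaves as pyruvate, which lactate dehydrogenase turns into lactate or the pyruvate dehydrogenase complex passes to the mitochondrion. Several steps have one isozyme gene that predominates in striated muscle (Hk2, Pfkm, Pgam2, Eno3, and Ldhb in heart) and others that are widespread or typical of other tissues (Hk1, Pfkl, Pfkp, Pgam1, Eno1, Ldha).

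Promoter sequence was read for Slc2a12, the only member called different in either comparison, and for isozyme pairs of phosphoglycerate mutase and lactate dehydrogenase, whose balance within a library is described further on. Each line gives the 250 bases before the first listed RefSeq start site of the gene (assembly GRCm38.p6), 5′ to 3′ on the gene's strand, with motif matches in capitals.
Slc2a12, chr10:22644761-22645010, plus strand: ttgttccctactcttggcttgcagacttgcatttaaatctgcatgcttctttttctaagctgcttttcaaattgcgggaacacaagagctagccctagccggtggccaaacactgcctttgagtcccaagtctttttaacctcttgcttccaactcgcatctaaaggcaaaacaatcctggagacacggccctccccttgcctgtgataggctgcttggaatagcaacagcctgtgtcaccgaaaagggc
Pgam2, chr11:5803797-5804046, minus strand: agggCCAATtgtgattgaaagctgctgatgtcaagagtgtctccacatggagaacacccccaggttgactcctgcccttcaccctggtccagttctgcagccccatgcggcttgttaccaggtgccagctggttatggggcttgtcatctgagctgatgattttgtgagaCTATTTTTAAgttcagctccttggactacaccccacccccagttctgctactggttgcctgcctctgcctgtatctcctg
Pgam1, chr19:41911621-41911870, plus strand: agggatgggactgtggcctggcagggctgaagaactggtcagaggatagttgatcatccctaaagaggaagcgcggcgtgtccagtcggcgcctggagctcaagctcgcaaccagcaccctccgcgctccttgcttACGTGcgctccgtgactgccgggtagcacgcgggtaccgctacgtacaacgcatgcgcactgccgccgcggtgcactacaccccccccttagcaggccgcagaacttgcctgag
Ldhb, chr6:142507958-142508207, minus strand: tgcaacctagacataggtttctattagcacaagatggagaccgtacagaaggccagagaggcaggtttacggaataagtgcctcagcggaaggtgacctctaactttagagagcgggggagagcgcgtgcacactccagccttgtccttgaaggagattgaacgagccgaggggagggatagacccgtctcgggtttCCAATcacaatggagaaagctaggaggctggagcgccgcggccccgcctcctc
Ldha, chr7:46845554-46845803, plus strand: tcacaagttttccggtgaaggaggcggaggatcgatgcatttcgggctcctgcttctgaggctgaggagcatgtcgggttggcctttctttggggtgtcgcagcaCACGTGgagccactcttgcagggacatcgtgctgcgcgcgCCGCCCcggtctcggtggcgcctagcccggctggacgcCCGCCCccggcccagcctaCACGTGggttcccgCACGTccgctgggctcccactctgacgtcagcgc
The motifs searched, on both strands, were the hypoxia response core ACGTG, the GC box GGGCGG, the CCAAT box, the TATA box TATAAA and the A/T-rich MEF2 site; ACGTG overlaps its own reverse complement where a window holds CACGTG. Upstream of Pgam2 a MEF2 match lay at -80 and a CCAAT match at -246, counted from the start site, whereas the Pgam1 window held ACGTG at -114. The Ldha window held ACGTG at -145, -48 and -34 among others, and GC boxes at -105 and -67, and the Ldhb window held CCAAT at -53. None of these letters occurred in the Slc2a12 window, nor in the window of another RefSeq start of Ldha, which is not printed. Of the members, 33 were matched to RefSeq promoters, with 50 windows between them; Slc2a3 and Slc2a4 are named only. ACGTG occurred in 38.0% of the member windows and in 16.6% of the 32851 windows of all genes, GGGCGG in 46.0% and 32.7%, CCAAT in 36.0% and 33.8%, TATAAA in 4.0% and 12.4%, and the MEF2 match in 4.0% and 2.9%. The 15 genes with ACGTG included Slc2a1, Hk2, Hk3, Pfkm, Aldoa, Pgk1, Pkm, Ldha and Pygm. Windows of one gene can share bases, and a match of letters is a description, not a site in use.

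Before the members, 3 facts of the libraries bear on every value. Libraries held 14907331 to 19960947 counts on genes. Csk did not follow the label: it stood at 24.7 and 35.5 CPM (counts scaled to a common library size, with libraries balanced by the trimmed mean of M values, TMM) in KO26 and KO337, against 18.3 and 17.8 in WT35 and WT338 (log2 difference 0.74, SE 0.18, adjusted p = 0.0608). Counts over the whole gene in whole tissue do not show a deleted exon or a loss in muscle cells alone, so the libraries are called labelled KO, and each direction rests on that label. KO337 stood apart. The summed level of 9 fibroblast markers was 3241 and 12528 CPM in KO26 and KO337, against 2775 and 2550 in WT, and that of 10 macrophage and leukocyte markers was 738 and 2967 CPM, against 428 and 554. For 12 cardiomyocyte markers the sums were 59839 and 30440 CPM, against 79506 and 75800 in WT, and all 11 that were tested lay lower in both libraries labelled KO, none of them called. Between IBR (75228 to 80013 CPM) and CTL (79910 to 89418 CPM) the cardiomyocyte sums lay closer, while the fibroblast sums were 1690 to 2538 CPM in IBR and 1058 to 1654 CPM in CTL. The atrial markers Myl7, Myl4, Nppa and Sln were abundant in every library while Bmp10 was at most 4.47 CPM. The ventricular marker Irx4 and the skeletal muscle markers Myh1, Myh2, Myh4, Mylpf and Myog lay at or below 1 CPM throughout. Other markers of these 2 lists did not. Ventricular Myl3 reached 173 CPM (CTL1) and Kcnip2 44.7 CPM (CTL3), and Ckm of the skeletal muscle list reached 749 CPM (CTL1). The cardiomyocyte marker Tnnc1 had at most 2 counts in a library, beside 3018 to 10760 CPM of Tnnt2. Whether counting lost Tnnc1 reads was not tested.

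In the libraries labelled KO, genes of glucose use that predominate in striated muscle lay mostly below WT. Isozymes of other tissues were on average mostly level or above, but in KO26 Pfkl, Pfkp and Pgam1 lay below both WT libraries. By edgeR's quasi-likelihood test with Benjamini-Hochberg adjustment over all genes, 1 of 35 members passed an adjusted p of 0.05, the transporter gene Slc2a12, which was lower; over all tested genes 2.21% passed in either direction, 1.31% higher and 0.898% lower. The fitted differences were negative for 21 members (60%, against 49.2% of all genes) and positive for 14, with a median of -0.36, against a median of 0.01 over all genes tested. Both libraries labelled KO lay below both WT libraries for 20 members (57.1%, against 26.9% of all genes tested) and above them for 4 (11.4%, against 26.3%). At an unadjusted p under 0.05 there were 20 members, 17 lower and 3 higher, against 25.7% of all genes, 12.4% lower and 13.3% higher. In a mixed tissue, fewer cells of a type and less RNA per cell cannot be told apart. KO26 and KO337 weigh unequally on these counts. Without KO337 the differences were negative for 28 members and positive for 7 (median -0.38), and without KO26 for 21 and 14 (median -0.51). Without KO26, 16 members were lower and 4 higher past the threshold, with KO337 as the lone library labelled KO and assumed to vary like the other groups; without KO337, none was called in either direction.

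**Figure D1:**
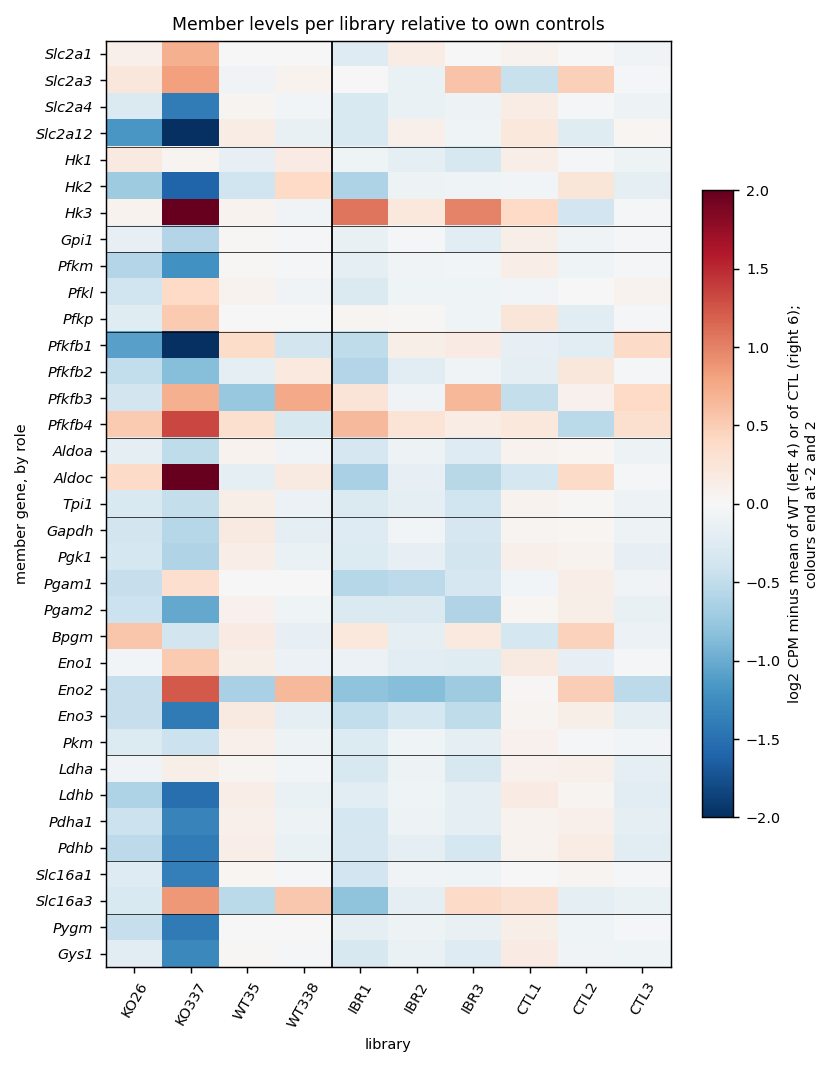
Level of the 35 members in each of the 10 libraries as log2 CPM minus the mean of the WT libraries (4 columns on the left, KO before WT) or of the CTL libraries (6 columns on the right, IBR before CTL); rows are ordered by role and colours end at -2 and 2. KO337 carries the strongest colours, blue for Slc2a12, Hk2, Pfkfb1 and Ldhb and red for Hk3 and Aldoc, whereas KO26 mostly shows the same blue at a paler shade.

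Among the glucose transporters, Slc2a12 (GLUT12, a transporter that insulin can bring to the surface of muscle cells) stood at 6.68 CPM (KO26) and 2.81 CPM (KO337), against 16.5 and 13.5 in WT35 and WT338. It fell 3.19-fold (log2 difference -1.67, SE 0.35, adjusted p = 0.0426), and both libraries labelled KO lay far below both WT libraries. The call did not last: the adjusted p was 0.051 with upper-quartile scaling, 0.332 with the experiments fitted separately, and 0.0628 to 0.206 with any library other than KO26 left out, at log2 differences of -1.19 to -1.81. Its last exon shares bases with Tbpl1 on the opposite strand, and counting ignored strand. Slc2a4, the main transporter of muscle, was at 239 and 111 CPM in KO26 and KO337, against 305 and 282 in WT (log2 difference -0.74, SE 0.29, adjusted p = 0.147). The groups did not overlap, yet KO26 lay close under WT and KO337 far below it. The transporter of basal uptake, Slc2a1, was at 20 and 30.3 CPM in KO26 and KO337, against 18.6 and 18.5 in WT (0.44, adjusted p = 0.209), and Slc2a3 (GLUT3, known from neurons and leukocytes) at 4.06 and 6.11 CPM, against 3.31 and 3.65 (0.55, adjusted p = 0.379). Both transporters were thus highest in KO337.

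Of the hexokinases, Hk2, the insulin-regulated form of muscle, was at 223 and 121 CPM in KO26 and KO337, against 279 and 481 in WT (log2 difference -1.14, SE 0.34, adjusted p = 0.0885). The WT libraries themselves differed widely. Hk1, the widespread form, was at 248 and 227 CPM against 195 and 246 in WT, so the groups overlapped. Hk3, the hexokinase of myeloid cells, was at 4.24 CPM (KO26) and 26.1 CPM (KO337), against 4.25 and 3.84 in WT (1.91, SE 0.67, adjusted p = 0.12). Only KO337, the library with the highest macrophage and leukocyte sum, stood above WT; all 10 of those markers had positive differences, 3 of them called, and their part in the Hk3 level was not tested. Gpi1, phosphoglucose isomerase, was at 374 and 277 CPM in KO26 and KO337, against 423 and 413 in WT (-0.36, adjusted p = 0.252).

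On group means, phosphofructokinase followed the same division. Pfkm, the muscle subunit, was at 625 and 407 CPM in KO26 and KO337, against 953 and 924 in WT (log2 difference -0.86, SE 0.22, adjusted p = 0.0654). It was one of the members nearest to the threshold. DESeq2, which called 12 members lower, gave Pfkm an adjusted p of 0.000825, whereas upper-quartile scaling and separate fits of the experiments called 0 members lower. The liver-type subunit Pfkl was at 51.0 and 89.0 CPM in KO26 and KO337, against 71.0 and 63.8 in WT, and the platelet-type subunit Pfkp at 54.8 and 93.0 CPM, against 65.1 and 64.1. Both had KO26 as the lowest and KO337 as the highest of the 4 libraries, and without KO337 their differences turned to -0.42 and -0.25.

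The bifunctional enzymes that make and break fructose 2,6-bisphosphate, the activator of phosphofructokinase, went separate ways. Pfkfb1, best known from liver and skeletal muscle, was at 5.75 and 2.49 CPM in KO26 and KO337, against 15.6 and 9.49 in WT (log2 difference -1.62, SE 0.43, adjusted p = 0.0694). Pfkfb2, the heart isozyme, was at 128 and 99.7 CPM, against 157 and 206 in WT (-0.67, SE 0.22, adjusted p = 0.105). Both lay below WT in both libraries labelled KO. Pfkfb4 was at 6.73 and 11.8 CPM, against 5.84 and 3.77 in WT (0.95, SE 0.38, adjusted p = 0.154). Pfkfb3, the inducible isozyme, was at 41.7 and 88.6 CPM, against 32.0 and 91.2 in WT, a spread within each group that left no order between them.

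Through the middle of the pathway the members differed less from WT. Aldoa, the muscle aldolase, was at 1219 and 982 CPM in KO26 and KO337, against 1456 and 1335 in WT (log2 difference -0.34, adjusted p = 0.313), and triosephosphate isomerase Tpi1 at 353 and 313 CPM, against 472 and 402 (-0.39, adjusted p = 0.19). Aldoc, the aldolase of brain, was barely expressed, with 0.58 and 2.44 CPM in KO26 and KO337, against 0.396 and 0.503 in WT. Its log2 difference of 1.77 (SE 0.65, adjusted p = 0.128) came mainly from KO337. Gapdh, the dehydrogenase often used to normalise other genes, was at 443 and 387 CPM, against 654 and 505 in WT (-0.48, SE 0.21, adjusted p = 0.185), and phosphoglycerate kinase Pgk1 at 87.1 and 73.5 CPM, against 123 and 101 (-0.48, adjusted p = 0.123). Both groups were separate for each of these, by small margins.

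In the lower steps, the muscle mutase Pgam2 was at 342 and 226 CPM in KO26 and KO337, against 490 and 433 in WT (log2 difference -0.70, SE 0.23, adjusted p = 0.103). The widespread mutase Pgam1, whose many pseudogenes can take or lose its reads, was at 12.0 and 20.8 CPM, against 16.6 and 16.5 in WT, with a difference near 0 (-0.01). Eno3, the muscle enolase, was at 554 and 286 CPM, against 861 and 675 in WT (-0.87, SE 0.29, adjusted p = 0.106). The other enolases had their highest level in KO337, where Eno1 was at 78.3 CPM and neuronal Eno2 at 25.0 CPM, but KO26 (52.4 and 7.72 CPM) lay within the range of WT35 (59.0 and 6.83 CPM) and WT338 (50.5 and 16.6 CPM). Pyruvate kinase Pkm was at 558 and 499 CPM, against 723 and 625 in WT (-0.35, adjusted p = 0.244). Bpgm, the mutase of red blood cells that makes 2,3-bisphosphoglycerate, was at 30.0 and 15.7 CPM, against 22.7 and 18.1, so that KO26 and KO337 enclosed WT.

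At the fate of pyruvate, the members of the lactate and mitochondrial route had the lowest median of any step with 3 or more members (-0.86 over 4 genes). Ldhb, the heart subunit of lactate dehydrogenase, was at 326 and 177 CPM in KO26 and KO337, against 548 and 459 in WT (log2 difference -1.0, SE 0.27, adjusted p = 0.074). Ldha, the muscle subunit, was at 338.4 and 387.9 CPM, against 372 and 342 in WT (0.03, adjusted p = 0.949). Ldhb lay below WT in both libraries while Ldha overlapped it. The pyruvate dehydrogenase subunits Pdha1 and Pdhb were at 727 and 385 CPM and 349 and 190 CPM in KO26 and KO337, against 1044 and 912 and 548 and 454 CPM in WT (-0.82, adjusted p = 0.112, and -0.90, adjusted p = 0.0888). Slc16a1, the lactate transporter MCT1, was at 270 and 126 CPM, against 331 and 317 in WT (-0.71, adjusted p = 0.154), whereas Slc16a3, the lactate exporter MCT4 of glycolytic cells, was at 8.01 and 18.2 CPM, against 6.83 and 14.5, with overlapping groups. For glycogen, the muscle phosphorylase Pygm was at 698 and 360 CPM, against 956 and 958 in WT (-0.86, SE 0.27, adjusted p = 0.1), and the synthase Gys1 at 97.1 and 45.9 CPM, against 114 and 110 (-0.65, adjusted p = 0.172). Ldhb, Pdha1, Pdhb, Slc16a1, Pygm and Gys1 thus lay below WT in both libraries, and further down in KO337 than in KO26.

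**Figure D2:**
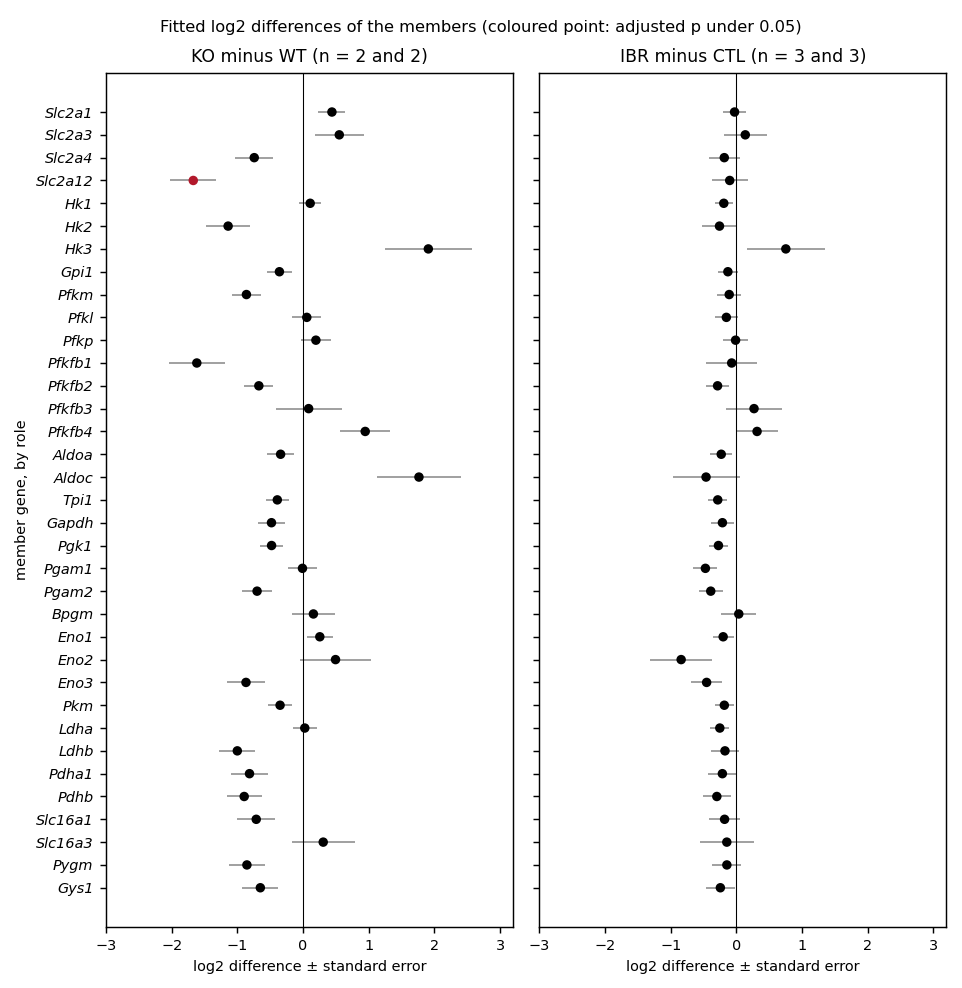
Fitted log2 difference of each member (points, bars for 1 standard error), KO minus WT on the left (n = 2 and 2) and IBR minus CTL on the right (n = 3 and 3), in order of role. Only Slc2a12 in KO against WT (-1.67) is coloured as called; on the right nearly all points lie a little left of 0 and none is called.

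Within the families, the balance of isozymes was compared library by library as the log2 ratio of 2 genes, which does not depend on how libraries are scaled. The isozyme less typical of heart muscle had the higher mean ratio under the KO label in all 10 pairs, by 0.66 to 1.68, and in 7 pairs both libraries labelled KO stood above both WT libraries. Among single genes tested, 26.3% lay above WT in this way. No such share was computed for other gene pairs, and Pfkp/Pfkm and Pfkl/Pfkm share a gene. The Ldha/Ldhb log2 ratio was 0.05 in KO26 and 1.13 in KO337, against -0.56 and -0.42 in WT (difference 1.09, exact permutation p = 0.333, the smallest that 2 against 2 libraries can give). Per length of exon, Ldhb made up 67.0% and 49.0% of lactate dehydrogenase transcripts in KO26 and KO337, against 75.7% and 73.9% in WT. Ldhb thus predominated in WT and KO26 and was level with Ldha in KO337. The Hk1/Hk2 log2 ratio was 0.15 and 0.91 in the libraries labelled KO, against -0.52 and -0.97 in WT (difference 1.27), and Slc2a1/Slc2a4 was -3.58 and -1.87, against -4.03 and -3.92 (difference 1.25). The 4 other pairs without overlap were Pfkp/Pfkm (1.04), Pfkl/Pfkm (0.90), Aldoc/Aldoa (1.68) and Eno1/Eno3 (1.17), and those that overlapped were Pfkfb3/Pfkfb2 (0.84), Pgam1/Pgam2 (0.66) and Slc16a3/Slc16a1 (1.09). In share of transcripts per length, Eno3 held 96.6% and 89.2% of enolase, against 97.6% and 96.8% in WT, Slc2a4 held 89.8% and 75.9% of the 4 transporters, against 90.1% and 90.0%, and Hk2 held 55.4% and 37.6% of hexokinase, against 66.1% and 72.9%. KO337 was the far library in every pair: without it 8 of 10 differences were positive (from -0.05 to 0.89, negative for Pgam1/Pgam2 and Slc16a3/Slc16a1), and without KO26 all 10 were (from 1.36 to 2.82). In IBR against CTL, 5 of the 10 ratios were higher and 5 lower, from -0.20 to 0.57, and only Slc2a1/Slc2a4 was separate (-4.55, -4.32 and -4.47 in IBR, against -4.67, -4.55 and -4.56 in CTL; unrounded values do not overlap; exact permutation p = 0.1, the smallest that 3 against 3 can give).

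**Figure D3:**
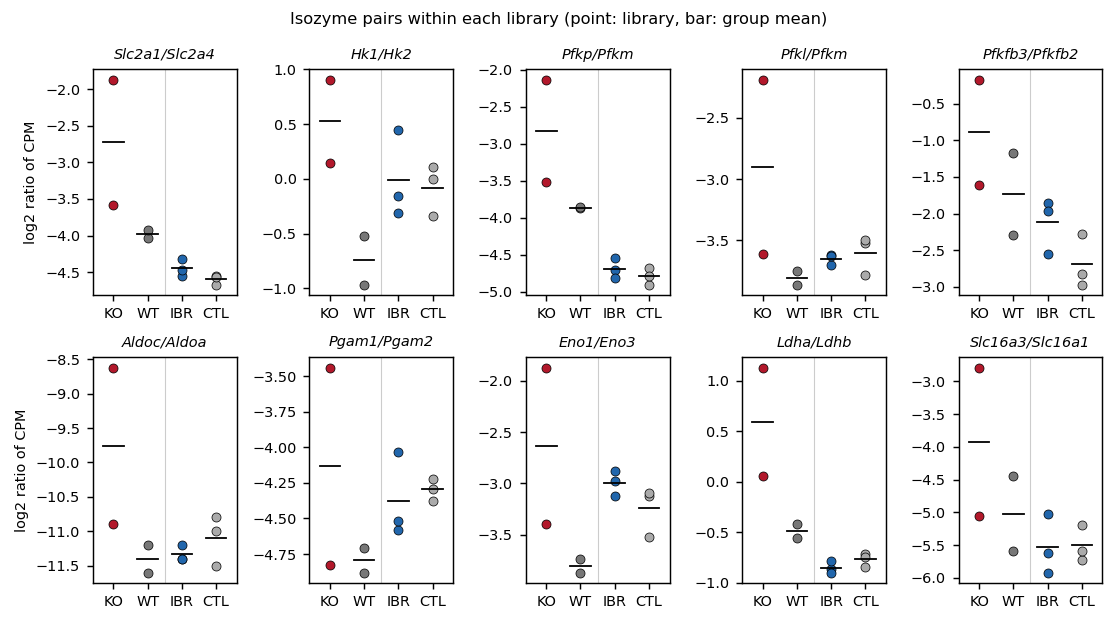
Log2 ratio of CPM of 10 isozyme pairs within each library (points) with group means (bars), KO left of WT and IBR left of CTL, each panel on its own scale. One library labelled KO, KO337, tops all panels, as at 1.13 for Ldha/Ldhb, whereas IBR and CTL libraries mostly intermingle.

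The cardiomyocyte markers were lower as well, so each member was also set against the mean log2 CPM of the 11 tested cardiomyocyte markers in the same library. That mean was 11.58 and 10.68 in KO26 and KO337, against 12.04 and 11.99 in WT, a difference of -0.88. Relative to it, Pfkm (-0.01), Pdha1 (-0.001), Slc2a4 (0.04), Pygm (-0.05), Eno3 (-0.05), Slc16a1 (0.07) and Pdhb (-0.07) differed by less than 0.1 between the libraries labelled KO and WT, that is, they were lower by about as much as the markers. Slc2a12 (-0.89), Pfkfb1 (-0.79) and Ldhb (-0.18) were the 3 members for which both libraries labelled KO lay below both WT libraries on this measure. The margin of Ldhb was narrow (-3.21 in KO337, against -3.15 in WT338). Hk2 averaged -0.27 against WT but overlapped it. For Slc2a12 the log2 ratio to the markers was -8.83 and -9.16 in KO26 and KO337, against -7.99 and -8.23 in WT. Another 15 members lay above WT on this measure, among them Hk1 (1.00), Ldha (0.91), Gpi1 (0.51), Aldoa (0.53) and Pkm (0.53), and the median over the 35 members was 0.51. Without KO337 that median was 0.12, with 24 members positive. The marker mean differed by -0.88, whereas the median difference in level over all genes tested was 0.01. A gene of unchanged level therefore lies above WT on this measure, and no share of all genes was computed on it. This measure takes the markers as constant per muscle cell, which was not tested, and carries no test of its own.

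**Figure D4:**
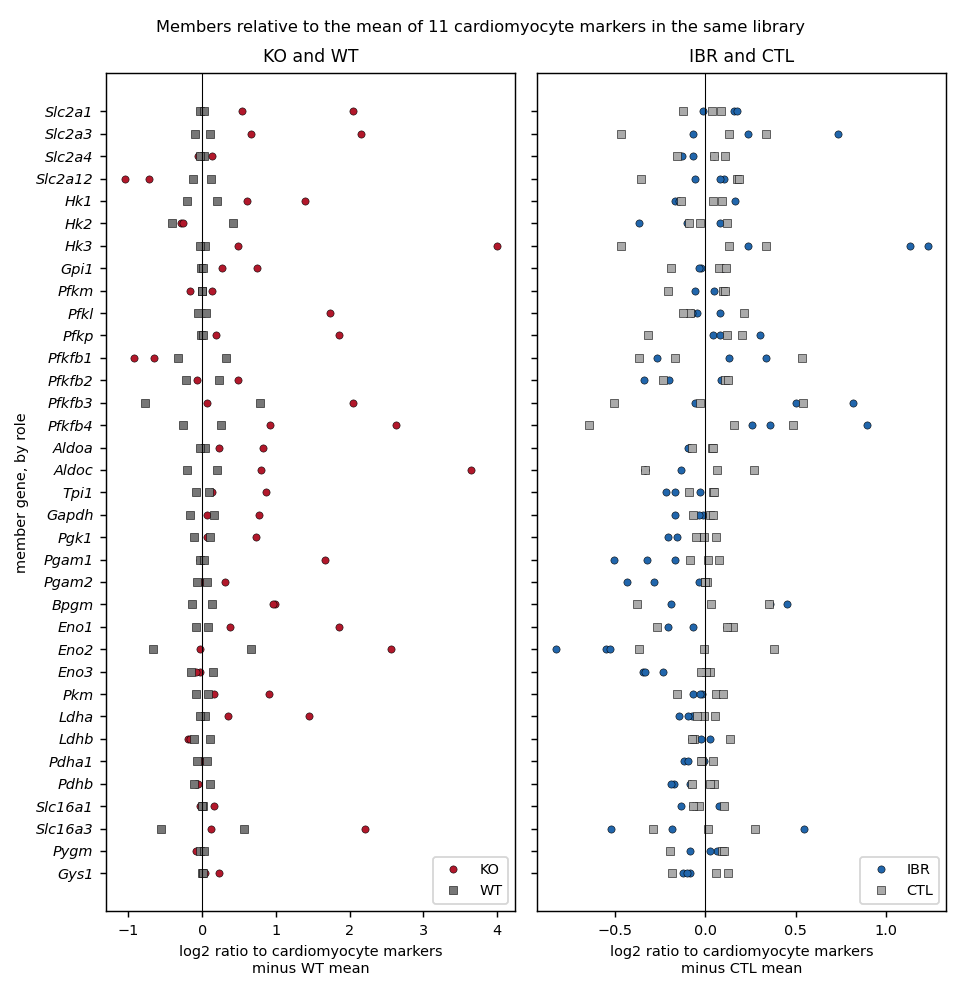
Log2 ratio of each member to the mean of 11 cardiomyocyte markers in the same library, minus the mean of WT (left panel, KO and WT libraries) or of CTL (right panel, IBR and CTL libraries); each point is a library. Slc2a12 and Pfkfb1 lie left of WT in both libraries labelled KO, the 2 points of Pfkm, Slc2a4 and Pygm average near 0, and Eno3, Pgam1 and Pgam2 lie left of CTL in all 3 IBR libraries.

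Ibrutinib libraries showed a small lower level of most members that no single gene carried past the threshold. By edgeR's quasi-likelihood test 0 of 35 members were called, as were 0.0% of all genes tested; 1 member, Pgam1, had an unadjusted p under 0.05, against 5.52% of all genes, and DESeq2 called no member. The fitted difference was negative in 30 of 35 members (85.7%, against 55.2% of all genes), with a median of -0.18 against -0.03 over all genes. For 12 members (34.3%) all 3 IBR libraries lay below all 3 CTL libraries, against 7.55% of all genes, and for none did they lie above, against 5.91%. These 12 were Slc2a4, Pfkl, Tpi1, Pgk1, Pgam1, Pgam2, Eno2, Eno3, Pkm, Slc16a1, Pygm and Gys1. Members share libraries and vary together, so such counts do not add up as independent evidence.

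Among the 12 separate members under ibrutinib, the largest differences were at the lower steps, where 6 of 9 members were separate. Tpi1 (log2 difference -0.28) and Pgk1 (-0.27) came next, and both glycogen members, Gys1 (-0.24) and Pygm (-0.14), were separate as well. Pgam1 was at 27.3, 28.4 and 32.3 CPM in IBR1 to IBR3, against 39.1, 44.5 and 38.5 in CTL1 to CTL3 (log2 difference -0.47, SE 0.18, adjusted p = 0.823). Its muscle counterpart Pgam2 was at 655, 652 and 527 CPM in IBR, against 817, 868 and 718 in CTL (-0.39, SE 0.18, adjusted p = 0.823). Both mutases lay below every CTL library. Eno3 was at 980.2, 1076 and 969 CPM in IBR, against 1431, 1493 and 1216 in CTL (-0.45, SE 0.23, adjusted p = 0.823), and the scarce Eno2 at 4.56, 4.42 and 4.89 CPM, against 8.14, 11.2 and 5.55 (-0.84, SE 0.47, adjusted p = 0.823). The Eno2 difference came with a wide spread among the CTL libraries, whereas the Eno3 libraries were tight within each group. Relative to the cardiomyocyte markers, whose mean differed by -0.14, Pgam1 (-0.33), Pgam2 (-0.25), Eno2 (-0.64) and Eno3 (-0.31) still lay below all CTL libraries. Pdhb (-0.15), Ldha (-0.11) and Aldoa (-0.09), whose levels overlapped CTL, lay below it on this measure alone, and no member lay above. Some margins were narrow, as for Pgam2 (-2.46 in IBR1, against -2.43 in CTL1) and Pdhb (-2.77 in IBR1, against -2.76 in CTL3). No share of all genes was computed on this measure, so a general rate of such separation is not known. The 11 markers also differed among themselves, from -0.57 (Actc1) to 0.11 (Ryr2), with 8 negative and 3 positive. Actc1 was the only marker to lie below every CTL library. The level differences of Pgam1, Pgam2 and Eno3 lay within the range of the markers, and that of Eno2 below it. Over all 35 members the median relative to the markers was -0.05, with 11 positive, and -0.0057 without IBR2, against the median of -0.18 for the levels themselves.

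At uptake, hexokinase and the committed step, members other than Hk3 differed less than Pgam1, Pgam2, Eno2 and Eno3. Hk1 (log2 difference -0.19, adjusted p = 0.826) and Hk2 (-0.26, adjusted p = 0.88) overlapped CTL. Slc2a4 was at 472, 534 and 543 CPM in IBR, against 647, 567 and 547 in CTL (log2 difference -0.18, SE 0.24, adjusted p = 0.893); the groups were separate only by the narrow gap between IBR3 and CTL3. Slc2a12, lower in the libraries labelled KO, was at 9.81, 12.9 and 11.4 CPM in IBR, against 14.0, 10.2 and 12.4 in CTL (-0.10, adjusted p = 0.955). Its groups overlapped. Pfkm was at 1110, 1219 and 1224 CPM, against 1396, 1194 and 1240 (-0.11, adjusted p = 0.919), and Ldhb at 917, 1007 and 940.3 CPM, against 1202, 1109 and 918 (-0.17, adjusted p = 0.893). The largest positive difference belonged to Hk3, at 3.33, 1.84 and 3.18 CPM in IBR against 2.11, 1.23 and 1.57 in CTL (0.75, SE 0.59, adjusted p = 0.83), a low gene in both groups; the macrophage and leukocyte sum was 295 to 413 CPM in IBR and 225 to 269 CPM in CTL, and its part was not tested.

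Both effects were compared with each other in the same fit as KO minus WT less IBR minus CTL. No member was called by edgeR's quasi-likelihood test or by DESeq2, 5 had an unadjusted p under 0.05 against 9.79% of all genes, and 0.026% of all genes were called. Slc2a12 had a difference of effects of -1.57 (SE 0.44, adjusted p = 0.349), Pfkfb1 of -1.55 (SE 0.57, adjusted p = 0.437) and Pfkm of -0.75 (SE 0.29, adjusted p = 0.445). Aldoc, scarce throughout, had 2.23 (SE 0.82, adjusted p = 0.437). Without KO26, 3 members had a higher and 11 a lower difference of effects past the threshold, again with KO337 alone.

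Among 104 further genes of glucose metabolism, listed by function, 94 were tested. In the libraries labelled KO 1 was called higher and 1 lower, while 2.21% of all genes were called in either direction. Of the 94 differences 65 were negative (69.1%, against 49.2% of all genes), with a median of -0.31. In IBR none was called by edgeR's quasi-likelihood test or by DESeq2. By edgeR 2 had an unadjusted p under 0.05 there, against 5.52% of all genes, and 62 were negative (66.0%, against 55.2%). Emb, which encodes embigin, a partner protein of monocarboxylate transporters, was at 19.8 and 43.4 CPM in KO26 and KO337, against 5.34 and 8.36 in WT (log2 difference 2.21, SE 0.44, adjusted p = 0.0404); the adjusted p was 0.305 with the experiments fitted separately and 0.0586 to 0.224 without KO337, CTL2 or any one IBR or WT library.

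All 13 genes of pyruvate dehydrogenase regulation and pyruvate entry had negative differences in the libraries labelled KO, at a median of -0.57, and edgeR called none of them (7 with an unadjusted p under 0.05). Over all genes tested 49.2% were negative and 25.7% had such a p, and the 11 tested cardiomyocyte markers, all negative, had a median of -0.77. Pdk2, a kinase that switches the complex off, was at 211 and 127 CPM in KO26 and KO337, against 305 and 289 in WT (log2 difference -0.81, SE 0.23, adjusted p = 0.0796). Its relative Pdk4, which fasting and fatty acids induce and which was named after its values were seen, was at 644 and 653 CPM, against 2474 and 2053 in WT (-1.80, SE 0.52, adjusted p = 0.0862). Unlike most members, Pdk4 was as low in KO26 as in KO337; in CTL alone it ran from 787 to 3066 CPM. In the remaining lists none was called, and the gene with the smallest p was Phka1 for glycogen, a muscle subunit of phosphorylase kinase (58.1 and 42.9 CPM, against 82.0 and 77.3 in WT; -0.66, adjusted p = 0.0607). For the pathways that branch from glycolysis it was G6pdx, the entry to the pentose phosphate route (17.2 and 27.6 CPM, against 11.9 and 8.99 in WT; 1.10, adjusted p = 0.108). For regulators it was Vhl, which targets hypoxia-inducible factors for degradation (16.1 and 15.2 CPM, against 9.99 and 7.04 in WT; 0.88, adjusted p = 0.0945).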

How the data were processed

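Per the labels, poly(A)-selected RNA of 10 left atrial libraries was made into sequencing libraries with a directional kit. Each library has 1 deposited table of unnormalised gene counts. The submitters' processing notes name HTSeq, STAR and edgeR and the build mm9 (versions and annotation: not given in the sources used here). Strand was ignored in counting, as the file names say, so members that share exon bases with a gene on the other strand (among them Slc2a1, Slc2a12, Hk1, Pfkp, Pdha1 and Gys1, and Emb and G6pdx of the further genes) and those with pseudogenes (Gapdh, Pgam1, Aldoa, Ldha) are less certain. Rows for unassigned reads (no feature 13.5% to 19.9%, no unique position 11.8% to 27.4%, ambiguous 3.14% to 3.99%) stayed out of library sizes.

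Groups came from the titles. Counts were fitted with edgeR 4.0.16 in R 4.3.3: filterByExpr (minimum count 10, minimum total 15), TMM scaling, 1 quasi-likelihood fit of all libraries with group means, robust (6 residual degrees of freedom), Benjamini-Hochberg over 15364 genes, called at an adjusted p under 0.05. TMM factors were 1.157 and 1.228 in KO26 and KO337 and 0.87 to 1.026 elsewhere. The common biological coefficient of variation was 0.221, but 0.294 in KO with WT and 0.169 in IBR with CTL. The joint fit thus assumed a smaller common spread for KO against WT than those libraries gave alone, and a larger one for IBR against CTL. P-values of both comparisons rest on this shared spread. A standard error (SE) is the log2 difference over the square root of F. Levels per length use the joined length of all exons of a gene in GENCODE vM21, on GRCm38 rather than mm9, so shares of isozymes depend on that length. Isozyme log2 ratios had 1 added to counts scaled to library size and two-sided exact permutation tests. All 35 members are described; of the other lists the called genes, or the gene with the smallest p, are named, except that 1 result is not reported here. DESeq2 1.42.0, other scalings and filters, separate fits and each library left out were tried. The fits were also run on simulated counts that gave each gene the same spread in every group. Such counts cannot show how the tests behave where the spread differs, as it did between the experiments here. The members and lists were chosen with earlier results of these data known.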

Additional observations from a re-analysis of the deposited data

How the results depend on the processing

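In the genotype comparison DESeq2 called 1 member higher and 12 lower, 4 and 12 of the further pathway genes, and 900.0 and 930.0 of all genes. Without the filter on low counts 9 members, 8 further genes and 679 of all genes were lower and 467 of all genes higher, upper-quartile scaling left 0 members and 89 of all genes lower, and separate fits of the experiments left 0 in every count. With one library left out, members called ranged from 0 to 4 (higher) and 0 to 16 (lower), further pathway genes from 0 to 7 and 1 to 32, all genes from 1 to 1777 and 11 to 2034, and members in the difference of both effects from 0 to 3 and 0 to 11; the highest counts came without KO26, where KO337 stands alone. Under ibrutinib no alternative called a member; over all genes 2 were lower with DESeq2 and 2 without the filter. The cause of these changes was not tested.

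Members near 0 changed sign. With single libraries left out, KO minus WT ranged over Hk1 -0.0518 to 0.287, Pfkl -0.418 to 0.402, Pfkp -0.254 to 0.526, Pfkfb3 -0.573 to 1.03, Pgam1 -0.483 to 0.331, Bpgm -0.379 to 0.534, Eno1 -0.0815 to 0.514, Eno2 -0.607 to 1.27, Ldha -0.0931 to 0.121 and Slc16a3 -0.417 to 0.942; Pgam1 was 0.0232 with upper-quartile scaling and 0.0227 with separate fits, and Ldha -0.0146 without the filter. IBR minus CTL ranged over Slc2a1 -0.121 to 0.0783, Slc2a3 -0.105 to 0.399, Slc2a12 -0.211 to 0.00981, Pfkp -0.11 to 0.115, Pfkfb1 -0.187 to 0.149, Bpgm -0.126 to 0.305, Slc16a3 -0.485 to 0.104, Phka1 -0.12 to 0.0185 and Pdk2 -0.133 to 0.0212; Slc2a1 was 0.0143 without the filter, and Pfkp 0.00417 with upper-quartile scaling, 0.0319 without the filter and 0.0148 with separate fits. The medians of the members stayed negative under every alternative run, at -0.284 to -0.506 for KO against WT and -0.141 to -0.232 for IBR against CTL.

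IBR and CTL share replicate numbers, but deviations of same-numbered libraries correlated at only 0.0151, 0.141 and 0.0228, so the numbers were not taken to pair them. With the replicate block 2 genes were called higher over all genes, no member was called, and Pfkp turned to 0.0255. KO and WT share no numbers, so no paired analysis was possible there.

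Groups of 2 and 3 libraries limit the precision, and so does depth for scarce genes: for scarce members such as Aldoc, 3 counts in a library amount to 0.15 to 0.201 CPM.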

Other observations

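Bpgm, which is highly expressed in red blood cells, varied within groups more than between them, and within each group the libraries ranked by Bpgm as they ranked by the summed level of 5 erythroid markers (globin genes and Alas2). In the libraries labelled KO, Bpgm was at 30.0 and 15.7 CPM in KO26 and KO337, beside erythroid sums of 1007 and 41.3 CPM, and in WT35 and WT338 it was at 22.7 and 18.1 CPM beside 182 and 77.8 CPM. In IBR1 to IBR3 it was at 35, 26.4 and 34.7 CPM beside 1460, 462 and 1182 CPM, and in CTL1 to CTL3 at 23.8, 41.9 and 28.0 CPM beside 213, 2419 and 473 CPM. The pattern was seen after the values were known, and what blood contributes was not tested.

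Several members differed more between the experiments than within them, which was not tested, since genotype and drug libraries are not replicates of each other. Gapdh was at 387 to 654 CPM in the KO and WT libraries and at 1857 to 2451 CPM in IBR and CTL, and Pgk1 at 73.5 to 123 CPM and 287 to 397 CPM. Pfkfb1 went the other way, at 2.49 to 15.6 CPM and 1.3 to 2.42 CPM, and so did Pfkfb3, at 32.0 to 91.2 CPM and 11.3 to 24.8 CPM. Reads without a unique position made up 11.8% to 14.7% of records in KO and WT and 17.9% to 27.4% in IBR and CTL. Experiment, handling and batch cannot be told apart here.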
